A study of Mus musculus with 6 samples.

Results

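The cells described here are T cells with an interferon signature, found among ovalbumin-specific OT-II CD4+ T cells recovered from Peyer's patches, lymphoid tissue in the wall of the mouse small intestine. The OT-II donors were RAG-/- and either WT or TgfbrIWT/mut, that is, heterozygous for an M318R knock-in at the Tgfbr1 locus, which encodes the type I TGF-beta receptor. Donor cells were CD4-enriched with beads and transferred intravenously into CD45.1 WT hosts that drank 1.5% ovalbumin for 7 days, and tissue was taken on day 8. Donor cells were sorted as CD45.2+CD45.1-CD4+CD8-TCRβ+, and single-cell RNA libraries were made by the 10x 3′ method. The rapamycin gavage of the design text is not tied to these libraries by their labels. There were 4 libraries, called here WT 1, WT 2, mutant 1 and mutant 2, and the WT matrices also held counts of 3 antibody tags (301, 302 and 303). What a tag marks is not given in the labels, nor is it said that each library came from separate animals. P-values therefore speak at most for the spread between libraries, and that spread may be technical. Those of the gene tests rest on counting error and a spread pooled over all genes. A gene that moved opposite ways between libraries, or was carried by few cells, could still pass.

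A cell barcode was kept as a T cell when it had at least 500 detected genes, at most 10% of its unique molecular identifiers (UMIs, one per captured RNA molecule) in mitochondrial genes, at least 1 UMI of Cd3e, Cd3d or Cd3g, and no UMI of Epcam, Krt8 or Cd79a. Of 4803 barcodes, 2887 were kept. Interferon-signature cells were chosen by measured RNA: they were the kept barcodes with a UMI in at least 4 of 8 genes: Ifit1, Ifit3, Rtp4, Irf7, Isg15, Usp18, Rsad2 and Xaf1. There were 147 of them, 5.09% of the kept T cells, and the other 2740 kept T cells served as comparators. The 8 genes chose the cells, so their levels are given as a description and were not tested.

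Type I interferons bind a receptor made of IFNAR1 and IFNAR2, whose kinases JAK1 and TYK2 phosphorylate STAT proteins. These join IRF9 in the complex ISGF3, which binds a GAAA-repeat element in promoters and switches on interferon-stimulated genes. Interferon gamma signals through a receptor of its own and shares many of the same targets, among them the immunity-related and guanylate-binding GTPases. The products restrict viruses, sense foreign nucleic acid and load peptides on MHC class I.

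The promoter stretches below come from 4 of the 8 genes used by the rule and 3 of the genes that the rule did not use. They are shown because they carry the repeat that ISGF3 and interferon regulatory factors bind. Sequences are from RefSeq on GRCm38.p6, the assembly that mm10 represents, and are written 5′ to 3′ on the strand of the transcript, with matches on either strand in capitals. A match is GAAA, any 2 bases, then GAAA, and on the opposite strand it reads as a pair of TTTC.
Ifit1 (chr19:34640765-34640833, plus strand): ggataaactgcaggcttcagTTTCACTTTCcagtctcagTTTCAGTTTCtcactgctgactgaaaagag
Ifit3 (chr19:34583353-34583436, plus strand): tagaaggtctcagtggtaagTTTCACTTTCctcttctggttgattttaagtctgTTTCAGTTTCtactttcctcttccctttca
Isg15 (chr4:156200855-156200916, minus strand): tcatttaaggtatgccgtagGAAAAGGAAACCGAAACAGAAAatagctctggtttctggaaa
Rsad2 (chr12:26456543-26456592, minus strand): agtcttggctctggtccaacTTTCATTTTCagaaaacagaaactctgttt
Oas1a (chr5:120907526-120907565, minus strand): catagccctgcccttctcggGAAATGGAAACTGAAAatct
Slfn5 (chr11:82951927-82951976, plus strand): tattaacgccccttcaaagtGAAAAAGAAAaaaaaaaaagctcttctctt
Igtp (chr11:58199502-58199551, plus strand): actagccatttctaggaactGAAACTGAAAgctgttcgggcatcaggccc

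All 7 stretches lie within 250 bases upstream of the start used in the RefSeq promoter table. For Slfn5 that start lies inside the GENCODE gene, which begins at position 82951349, so its stretch is downstream of the GENCODE start. Ifit1 and Ifit3 hold 2 matches each, Isg15 holds 3 overlapping ones, and Oas1a holds 2 that overlap. Rsad2, Slfn5 and Igtp hold 1 each. Of the 8 rule genes, 6 had an entry in the promoter table, and 4 of those 6 held a match; Irf7 and Xaf1 did not. Rtp4 and Usp18 had no entry.

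Most interferon-signature cells came from a single WT library. WT 1 held 110 of 1236 kept T cells, 8.90% (exact binomial 95% interval 7.37 to 10.6%), and WT 2 held 2 of 614, 0.326% (0.0395 to 1.17%). The intervals cover counting error only. The intervals of the 2 WT libraries did not overlap, although median depth was close, at 8823.5 UMIs per kept T cell in WT 1 and 8615.5 in WT 2.

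The mutant libraries differed in the same direction, but their intervals overlapped. Mutant 1 held 34 of 847, 4.01% (2.80 to 5.56%), and mutant 2 held 1 of 190, 0.526% (0.0133 to 2.90%). The mean over libraries was 4.61% ± 6.06 (SD, n = 2) in WT and 2.27% ± 2.47 (SD, n = 2) in mutant. The difference, mutant minus WT, was -2.34 percentage points, within the spread between libraries (exact two-sided permutation test over the 4 libraries, p = 1; the smallest p that 2 against 2 allows is 0.33). Without WT 1 the difference turned to 1.94 points, so WT 1 set its direction.

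Depth bears on a rule that asks for 4 detected genes. Signature cells had a median of 9039 UMIs in WT 1, against 8814.5 in the other T cells, and 10422.5 against 8451 in mutant 1. After each barcode was thinned to 4000 UMIs, which left out 27 to 59 shallower barcodes per library, the shares were 3.83% (46 of 1202) in WT 1 and 1.52% (12 of 788) in mutant 1. None of 579 barcodes in WT 2 and none of 163 in mutant 2 then met the rule. The 2 libraries numbered 1 stayed above those numbered 2 in both versions. After thinning the mutant intervals again overlapped, at 0.789 to 2.64% in mutant 1 and 0 to 2.24% in mutant 2. No barcode sequence was shared between libraries among the signature cells, and pairs of libraries shared 0 to 2 kept barcodes. Scrublet called 2 of the 147 signature cells doublets, and it marked only 31 of all 4803 barcodes.

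Within WT 1 the signature cells fell almost wholly under 1 antibody tag. Among kept T cells whose leading tag was 302, 106 of 457 carried the signature, 23.2% (19.4 to 27.3%). The share was 4 of 452, 0.885% (0.242 to 2.25%), under tag 301, and 0 of 321 under tag 303, with an exact upper bound of 1.14% (a floor of 3 counts is 0.935%). These 3 groups were captured in the same library at like depth, with median UMIs of 8914.5 for tag 301, 8880 for tag 302 and 8630 for tag 303. In WT 2 the same tag held 1 signature cell of 76, so the excess under tag 302 was seen in WT 1 and not in WT 2. Where the tag call was strict (at least 10 tag counts, at least 80% of them from 1 tag), the WT 1 shares were 2 of 326 for tag 301, 62 of 295 for tag 302 and 0 of 252 for tag 303. The strict call left out 363 kept T cells of WT 1, 46 signature cells among them. The median tag count in WT 1 was 12 in signature cells and 16 in the other T cells. Each tag of a library is a single group of cells with no replicate, so no test between tags was made.

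**Figure D1:**
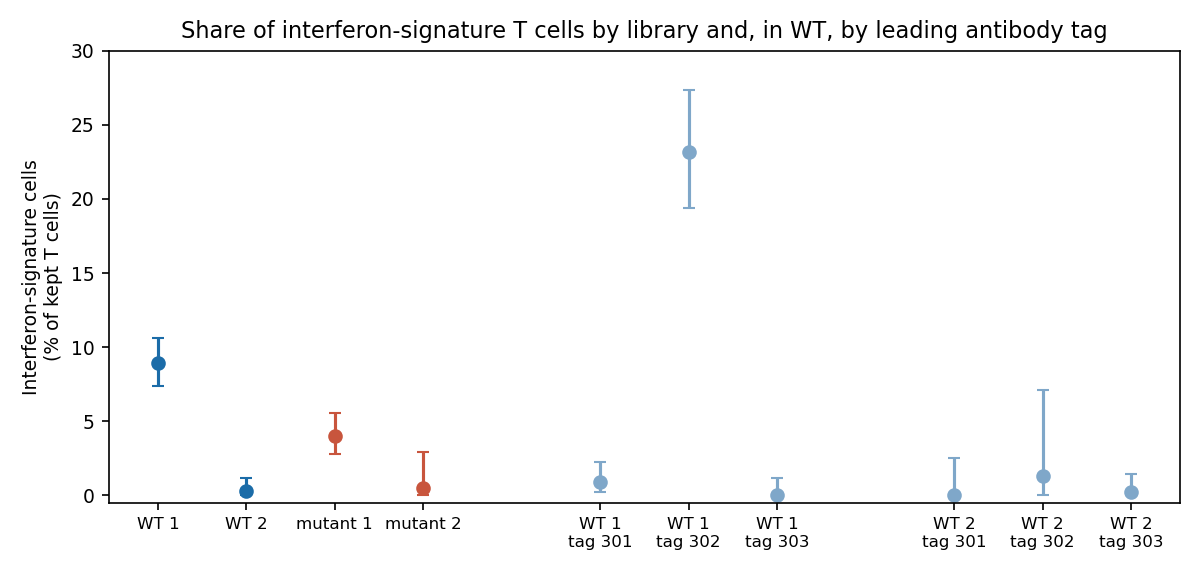
Share of kept T cells (percent, y axis) that met the interferon rule, by library and, in the WT libraries, by leading antibody tag; points are shares and bars exact binomial 95% intervals for counting error. WT 1 (8.90%) and mutant 1 (4.01%) lie above WT 2 and mutant 2, and within WT 1 tag 302 reaches 23.2% while tags 301 and 303 stay at 0.885% and 0%.

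The whole distribution under tag 302 was shifted, not only its upper end. Barcodes with none of the 8 genes made up 10.7% of tag 302 in WT 1, against 31.2% of tag 301 and 30.8% of tag 303. Barcodes with 3 of the genes, just outside the rule, made up 15.3%, 3.98% and 3.43% in the same order. Over the 4 libraries together, 820 kept T cells had none of the genes, 1214 had 1, 537 had 2, 169 had 3, 74 had 4, 43 had 5, 18 had 6, 8 had 7 and 4 had all 8.

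**Figure D2:**
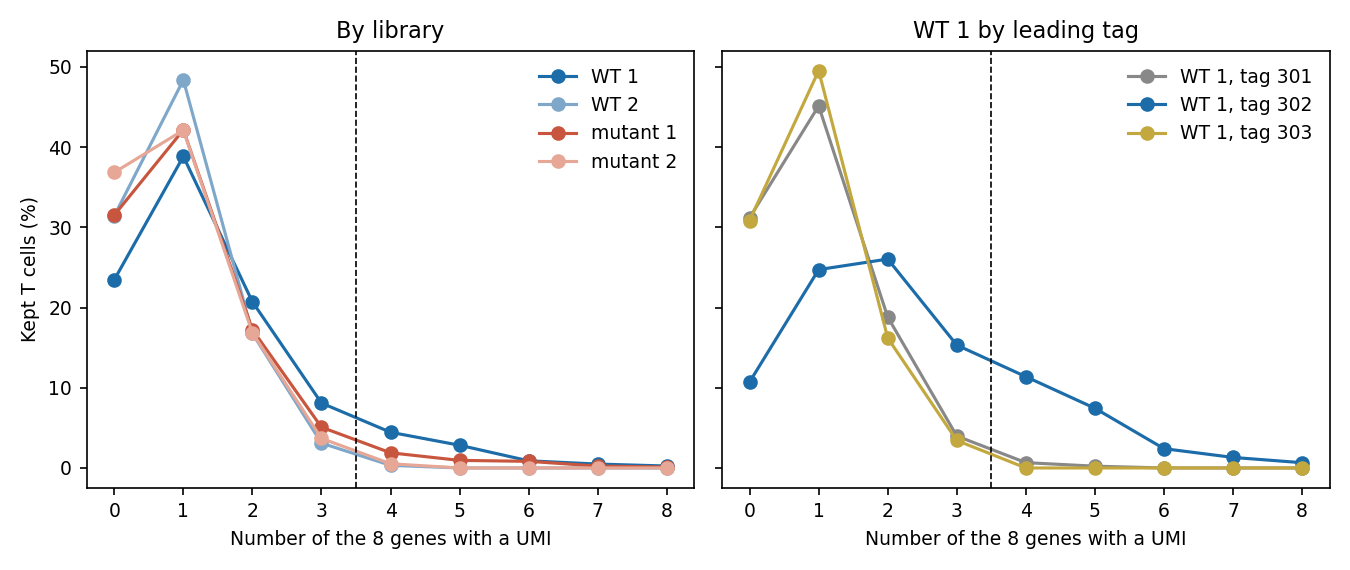
Percent of kept T cells (y axis) by the number of the 8 rule genes with a UMI (x axis), by library (left) and by leading tag in WT 1 (right); the dashed line is the rule's threshold. Tag 302 has 10.7% of its barcodes at 0 genes, against 31.2% and 30.8% for tags 301 and 303, and is the only one of the 3 tags with barcodes at 6 genes or more.

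Genes outside the rule showed the same tag. Pooled over all kept T cells of WT 1, signature cells included, 44 of 9085 genes were at least 2-fold higher under tag 302 than under both other tags (0.484%). Among 123 genes of the interferon lists, rule genes left out, 23 were (18.7%), and for tags 301 and 303 none was. Ifi27l2a, a small hydrophobic protein induced by interferon, stood at 545 UMIs per 1000000 (CPM) under tag 301, 2504 under tag 302 and 544 under tag 303. Bst2, the tetherin that holds budding virus at the cell surface, stood at 37.5, 115 and 28.4 CPM. Ly6a, the surface protein Sca-1, stood at 21.8, 102 and 26.1 CPM. Ifi44, a cytoplasmic interferon-induced protein, had 0, 66 and 0 UMIs; its level under tag 302 was 15.1 CPM, and 3 counts would be 0.704 CPM under tag 301 and 1.00 CPM under tag 303.

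The tag difference was also present in cells that did not meet the rule. With signature cells left out, 18 of 8934 genes were at least 2-fold higher under tag 302 (0.201%), 3 under tag 301 and 17 under tag 303. Among 118 interferon-list genes outside the rule, 8 were higher under tag 302 (6.78%) and 0 under tag 301 or tag 303. Ifi27l2a then stood at 534, 1902 and 544 CPM under tags 301, 302 and 303, and Bst2 at 36.7, 79.7 and 28.4 CPM. In WT 2, none of 106 such genes was 2-fold higher under any tag, and Ifi27l2a stood at 503, 467 and 507 CPM. Counted with signature cells included, the genes of tag 302 in WT 1 outside the interferon lists included Ifi202b, Ddx60 and H2-T24. They also included the chemokines Ccl5 and Xcl1, the receptors Cxcr6 and Ccr2, the cytokine Il10 and the repressor Prdm1. These genes were chosen for mention after their values were seen. Ccl5 had 0 UMIs in the signature cells of WT 1. Over all kept cells of mutant 1, which has no tags, Ifi27l2a stood at 1242 CPM, and over those of mutant 2 at 562 CPM.

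**Figure D3:**
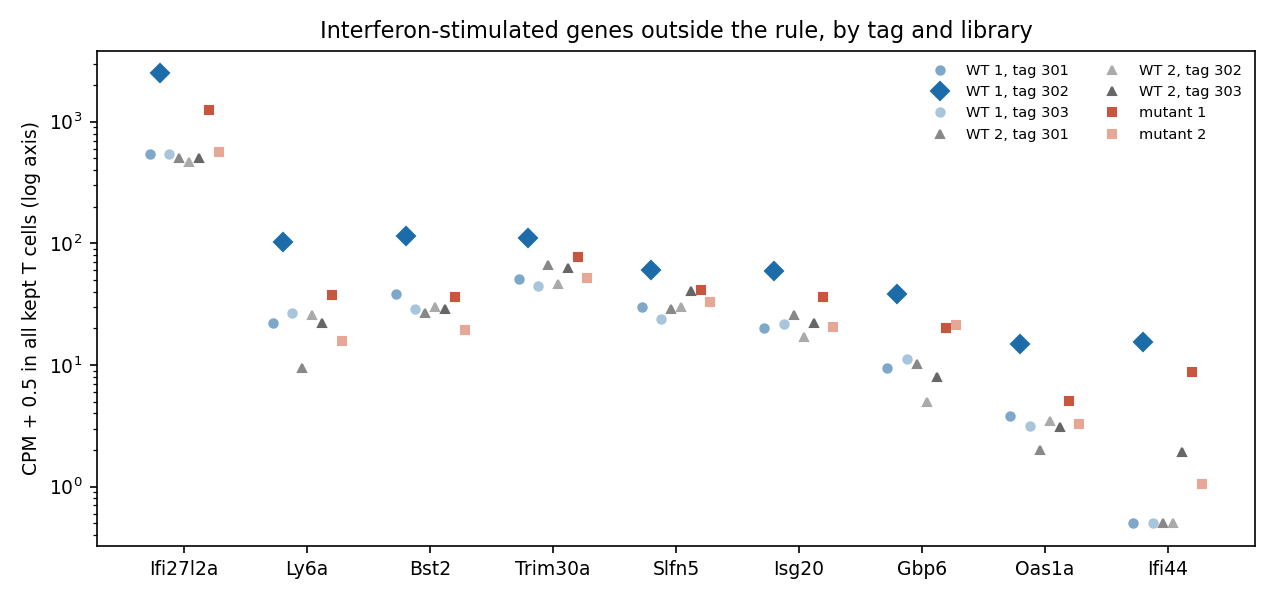
Level of 9 interferon-stimulated genes outside the rule in all kept T cells (CPM plus an offset of 0.5, log y axis) by leading tag in the WT libraries and by library in the mutants. The genes shown are all among the 23 of 123 at least 2-fold higher under tag 302 than under both other WT 1 tags. Its rank above those tags therefore follows from the choice of genes. Tag 302 of WT 1 is also the highest of the 8 groups for each gene shown, and mutant 1 is the next highest for Ifi27l2a (1242 CPM against 2504).

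As a description, the rule genes themselves ranged widely in level. Isg15, the ubiquitin-like modifier, was the most abundant, at 798 CPM in WT 1 signature cells and 562 CPM in those of mutant 1, against 204 and 164 CPM in the other T cells. Xaf1, a pro-apoptotic partner of XIAP, stood at 231 and 305 CPM against 40.8 and 40.3 CPM. Ifit1, which binds foreign RNA, stood at 108 and 158 CPM against 2.55 and 1.27 CPM. Rsad2, the antiviral enzyme viperin, was the lowest in WT 1, at 19.3 CPM, with a UMI in 15 of 110 cells.

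The level summed over 90 interferon-stimulated genes that the rule did not use was higher in signature cells of WT 1 and mutant 1 than in their other T cells. In WT 1 the median was 135 UMIs per 10000 in signature cells and 65.2 in the others, and in mutant 1 it was 185 and 68.3. The 2 signature cells of WT 2 stood at 47.3 and 141, against a median of 59.8 in its others. The 1 signature cell of mutant 2 stood at 61.3, against 60.6. Just inside the rule, WT 1 cells with 4 rule genes had a median of 121, and just outside it, cells with 3 had 90.8; in mutant 1 these medians were 150 and 104. Cells with 0, 1 and 2 rule genes had medians of 62.7, 60.7 and 68.4 in WT 1 and 67.3, 65.5 and 71.8 in mutant 1, so the medians differed little up to 2 rule genes. Ifi27l2a made a large part of the sum. Without it the medians were 94.0 and 58.1 in WT 1 and 107 and 61.3 in mutant 1. On that measure 50 of 110 signature cells in WT 1 and 19 of 34 in mutant 1 lay above the 95th percentile of the other T cells, so the classes overlapped.

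UMIs were then summed per library and class and tested with edgeR's quasi-likelihood test, with the library as a block and Benjamini-Hochberg adjustment over all genes tested. Libraries with at least 10 signature cells entered, which left WT 1 and mutant 1, so the test had 4 sums and 1 residual degree of freedom and took its spread from all genes together. Of 10073 genes, 105 were higher in signature cells at an adjusted p under 0.05 (1.04%) and 14 were lower (0.139%). Of the 105, 72 belonged to 13 interferon lists holding 136 tested genes, 4 to other lists only and 29 to none. No gene of the 13 lists fell. Their median log2 fold change was 0.96, against -0.01 over all genes tested, and 123 of the 136 were higher in signature cells of both libraries, against 23.6% of all genes. DESeq2's Wald test called 55 genes higher and the fit with no library block 28, all of them among the 105. The lists were drawn up with earlier results of these data known. WT 1 signature cells nearly all carried tag 302, and with WT cells limited to that tag on both sides 95 genes were higher, 89 of them among the 105.

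**Figure D4:**
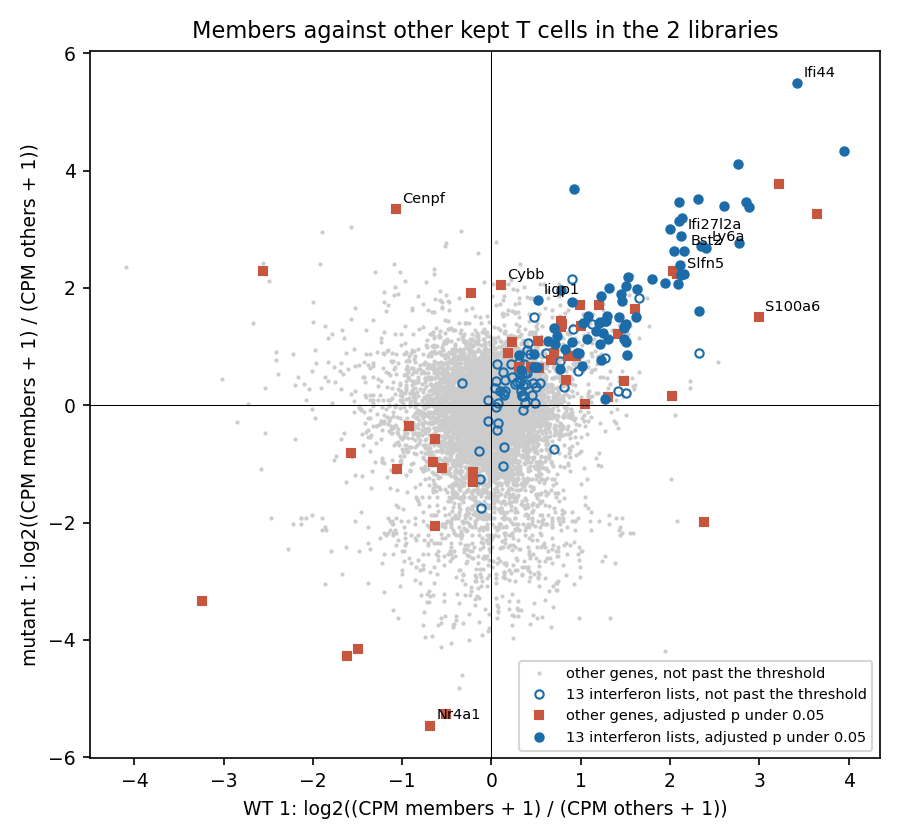
Each tested gene by its log2 ratio of signature to other T cells in WT 1 (x axis) and mutant 1 (y axis), from normalised CPM plus 1; blue marks the 13 interferon lists, filled where the adjusted p was under 0.05, and red squares mark other genes past that threshold. Interferon-list genes lie mostly in the upper right, higher in both libraries (123 of 136), while Cenpf lies in the upper left.

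Antiviral effectors had the highest median of the lists. In this group 13 of 17 tested genes rose and none fell, with a median log2 fold change of 2.36. Levels below are CPM after edgeR's library scaling. Ifi44 stood at 36.1 CPM in WT 1 signature cells against 2.45 in the others, and at 132 against 1.96 in mutant 1, a log2 fold change of 4.90 ± 0.41 (SE; edgeR adjusted p = 6.18e-29). Its UMIs came from 19 of 110 signature cells in WT 1 and 14 of 34 in mutant 1, so most signature cells had none. Ifi27l2a stood at 4235 against 968 CPM in WT 1 and 6988 against 943 CPM in mutant 1, a log2 fold change of 2.51 ± 0.15 (SE; edgeR adjusted p = 3.35e-58). It was detected in nearly every signature cell, 109 of 110 and 33 of 34. Bst2 stood at 218 against 48.0 CPM and 179 against 28.2 CPM (2.36 ± 0.16 SE on the log2 scale; edgeR adjusted p = 1.92e-42). Eif2ak2, the RNA-activated kinase PKR, rose by 3.14 on the log2 scale and Ifitm3, which blocks virus entry at endosomes, by 3.67.

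Ifit3b, a near copy of Ifit3, had 16 UMIs in WT 1 signature cells and 0 in the others, at least 51.0-fold higher against a floor of 3 counts in that library's others. In mutant 1 it had 8 UMIs against 1. Reads of close copies such as Ifit3 and Ifit3b, Ifit1 and Ifit1bl1, or Phf11a, Phf11b and Phf11c can be split between them by the counting, so single members of such families are uncertain. Ifit3 and Ifit1 are rule genes, so the rises of Ifit3b and Ifit1bl1 may follow from the choice of cells. Both are counted among the antiviral rises above and are no separate support for the signature. Ifit2 (log2 fold change 1.31, edgeR adjusted p = 0.0701) and Adar, the RNA-editing deaminase (0.88, adjusted p = 0.121), did not pass.

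Of 8 tested nucleic-acid sensors and adaptors 3 rose. These were the cytoplasmic RNA helicases Dhx58 (LGP2), up by 2.81, Ddx58 (RIG-I) by 1.76 and Ifih1 (MDA5) by 1.36 on the log2 scale. Their adaptor Mavs (-0.08), the DNA-pathway adaptor Tmem173 (STING; 0.26) and the adaptor Myd88 (0.27) did not pass. Oas1a and Oas3, which make 2-5A in response to double-stranded RNA, rose by 3.39 and 3.17. Of the PYHIN family, which includes DNA sensors, 7 of 8 tested members rose, among them Mndal (521 against 193 CPM in WT 1, 552 against 194 in mutant 1) and Ifi203 (478 against 205 and 566 against 211). Ifi202b, of the same family but outside the list used, rose by 3.82. All 8 PYHIN genes were higher in both libraries.

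ISG15 is attached to proteins by a short enzyme chain, and 3 of its 4 tested enzymes rose: the ligase Herc6 by 1.99, the activating enzyme Uba7 by 1.43 and Trim25 by 1.38. The conjugating enzyme Ube2l6 did not pass, with 7 and 3 UMIs in the signature cells of WT 1 and mutant 1. Of the Schlafen family, 4 of 5 rose, led by Slfn5 (132 against 29.4 CPM in WT 1, 166 against 34.4 in mutant 1; log2 fold change 2.21). Slfn2, the most abundant at 682 against 566 and 966 against 750 CPM, did not pass (0.31, edgeR adjusted p = 0.543). Of the PARP and DTX3L group 3 of 7 rose, Dtx3l by 1.36, Parp9 by 1.17 and Parp14 by 0.96. Of the TRIM and nuclear body proteins 5 of 12 rose, with Pml, the scaffold of nuclear bodies, up by 1.88 and Trim30a by 1.79.

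At the head of the pathway, none of 7 tested receptors and kinases passed. Their log2 fold changes ran from -0.22 to 0.16; Ifnar1 stood at 68.6 against 60.1 CPM in WT 1 and 41.4 against 52.7 in mutant 1. Irf9 rose by 1.26 and Stat2 by 1.25. Irf1, Irf2, Irf3 and Irf8 lay between 0.02 and 0.30 and did not pass. Of 11 interferon genes listed, Ifng was the only one with UMIs in kept T cells, and it was not called, with 5 UMIs in WT 1 signature cells and 9 in those of mutant 1. None of the 8 listed genes of negative feedback passed, Socs1 among them (0.09, edgeR adjusted p = 0.999). That list left out Usp18, a feedback gene that the rule used and that was not tested. As a description, its unscaled level was 33.2 against 0.473 CPM in WT 1 and 34.8 against 0.424 CPM in mutant 1.

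Genes best known as interferon gamma targets rose as well. Of 15 GTPases tested 9 passed, among them Gbp6, Tgtp2, Irgm1 (79.4 against 25.1 CPM in WT 1, 69.0 against 23.7 in mutant 1) and Igtp, with log2 fold changes of 2.30, 2.15, 1.62 and 1.30. Gbp4 (0.44), Gbp8 (0.37) and Gbp5 (-0.22) did not pass. For MHC class I presentation 4 of 19 rose, the peptide transporter Tap1 by 0.72, the class Ib genes H2-T23 by 0.65 and H2-T22 by 0.57 and the loading chaperone Tapbp by 0.55. These 4 calls were lost, in the same order, in 6, 7, 9 and 9 of the 15 alternatives that gave a p. The classical chains H2-K1 (0.17) and H2-D1 (0.19) and B2m (0.35) did not pass, though 17 of the 19 were higher in both libraries. At the cell surface Ly6a rose by 2.54 (200 against 37.2 CPM and 193 against 29.2 CPM) and Ms4a4c by 2.29, while Ly6e rose by 0.46.

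**Figure D5:**
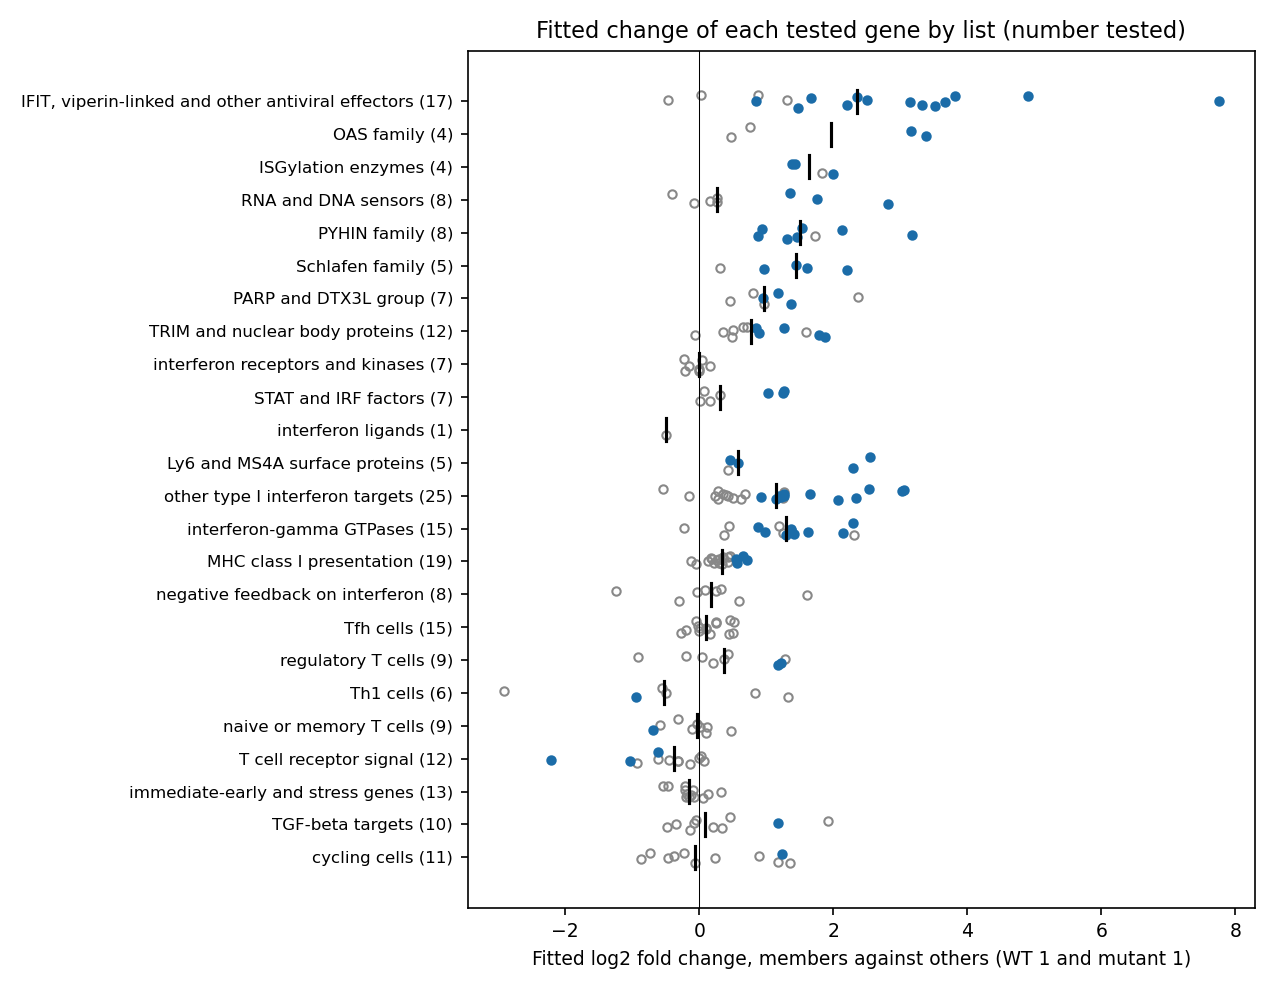
Fitted log2 fold change of signature against other T cells (x axis) for each tested gene of 24 lists (y axis, number tested in brackets); filled points passed an adjusted p of 0.05, open points did not, and black bars are medians. Antiviral effectors have a median of 2.36 and receptors and kinases one of -0.01.

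Of the rest of the interferon targets 12 of 25 rose, led by Phf11c (3.05), Phf11a (3.02) and Hsh2d, a lymphocyte adaptor (2.53). Lgals3bp, a secreted glycoprotein, rose by 2.34 and Rnf213, a large ubiquitin ligase, by 2.07. Among genes of no list, Gm47242, a predicted gene, had the largest rise, 4.40. Ddx60, a helicase related to RIG-I signalling, rose by 2.27, H2-T24 by 2.26 and Samhd1, the dNTP hydrolase that restricts retroviruses, by 0.85. The rise of S100a6 (2.74) rested on few cells: 6 of 110 signature cells in WT 1 had a UMI, and 64.3% of the 56 UMIs were in 1 barcode.

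The paired GAAA match was counted by gene in the 250 bases upstream of the RefSeq table's start. It was found for 27 of 60 matched interferon-list genes that rose (45.0%), for 14 of 52 that were tested and did not pass (26.9%), and for 2 of 27 that rose outside those lists (7.41%). Over all matched genes tested it was found for 257 of 7932 (3.24%). A match is a description of letters and not a binding site. Irf9, Cmpk2 and Ifi44, which rose, had none in this window.

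For most genes of T cell state no difference passed. Cd4 had a UMI in 100 of 110 signature cells of WT 1 and 32 of 34 of mutant 1, and Cd8a in none of either; Cd8b1 had 13 UMIs in those of WT 1 and 0 in those of mutant 1. Free RNA was not estimated, so its part in such counts was not tested. None of 15 tested T follicular helper genes passed, and their median log2 fold change was 0.10; the receptor Cxcr5 stood at 74.0 against 60.6 CPM in WT 1 and 102 against 105 in mutant 1, and the transcription factor Bcl6 at 58.6 against 65.5 and 130 against 118. Of 9 tested regulatory T cell genes 2 rose, Itgb8, the integrin chain that activates TGF-beta (1.22), and the master regulator Foxp3 (1.18, edgeR adjusted p = 0.0483). Foxp3 UMIs came from 12 of 110 and 2 of 34 signature cells, and Foxp3 is also the only one of 10 TGF-beta target genes that passed. The Foxp3 call was lost in 9 of the 14 alternatives that gave it a p. Il2ra (-0.92) and Gpr83 (-0.19) did not pass.

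Falls were fewer, and none was in the interferon lists. Falls were also harder to call: on simulated sums the same fit recovered 40 of 50 rises of 2-fold and 27 of 50 falls of 2-fold. Of the 14, 3 are genes of T cell receptor signal, out of 12 tested: the nuclear receptors Nr4a2 (-2.22) and Nr4a1 (-1.03) and the costimulatory receptor Tnfrsf9 (-0.62). Nr4a1 stood at 54.1 against 87.8 CPM in WT 1, and in mutant 1 signature cells it had 0 UMIs against 43.1 CPM, at least 5.20-fold lower against the 3-count floor. Egr1 (-0.14), Egr2 (0.07) and Cd69 (-0.31), other genes of that list, did not pass. Eomes, a T-box factor of the Th1 list, fell by 0.94, with 37.0 against 53.0 CPM in WT 1 and 0 UMIs against 37.6 CPM in mutant 1. Satb1, a chromatin organiser of the naive and memory list, fell by 0.69, with 117 against 173 and 49.7 against 106 CPM. The other falls by the naming rule were Adamts6 (-1.39), Hist1h2ap (-1.33), Chst2 (-1.11), Tnfsf4 (-0.83), Hivep3 (-0.77), Xist (-0.60) and Kcnq1ot1 (-0.55). Barcodes of either class were also limited, per library, to the 10th to 90th percentile of the signature cells' UMIs. That left 88 signature cells in WT 1 and 26 in mutant 1, and 14 genes were lower but 4 of them were the same. Without that limit, DESeq2's Wald test called none at the adjusted threshold (22 at an unadjusted p under 0.05). Among the 15 alternatives that gave a p, the call of Tnfsf4 was lost in 13, Eomes and Chst2 each in 11 and Adamts6 in 10. Satb1, Tnfrsf9, Hivep3 and Kcnq1ot1 were each lost in 9, Xist in 8, Hist1h2ap in 7 and Nr4a1 and Nr4a2 each in 5.

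Markers of other cells were set beside these results. Of 8 plasmacytoid dendritic cell markers, the summed level was 367 CPM in WT 1 signature cells against 127 in the others, and 219 against 71.9 in mutant 1. Of 4 tested, Bst2, itself an interferon target, and Ccr9 passed, and the defining markers Siglech, Klk1, Ly6d and Cox6a2 had 0 UMIs in the signature cells of both libraries. In the other T cells of each library 4 of the 8 markers were at 0 too, so these zeros do not separate the classes. Of 14 myeloid markers, which summed to 118 against 91.2 CPM in WT 1 and 112 against 82.8 in mutant 1, 10 were at 0 in the signature cells of each library. In the other T cells 8 were at 0 in WT 1 and 4 in mutant 1. None of 3 tested myeloid markers passed, and their median log2 fold change was 1.35. B cell markers summed to 237 against 165 CPM and 391 against 305 CPM, and none of 5 tested passed. Epithelial markers summed to 2.76 against 4.26 CPM and 5.35 against 6.92 CPM. The part of other cells' RNA in these results was not tested.

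Within WT alone the same comparison had little to rest on, since WT 2 gave 2 signature cells. With WT 1 and WT 2, 25 of 9558 genes were higher in signature cells (0.262%), 24 of them among the 105, and 18 in the interferon lists. Of the 25, 15 were higher in both libraries, and the other 10, Oas1a, Tgtp2 and Lgals3bp among them, had 0 UMIs in the 2 signature cells of WT 2, so their calls rest on WT 1. Ifi44 again led, with a log2 fold change of 4.33 ± 0.56 (SE; edgeR adjusted p = 1.01e-10), on 40 UMIs in WT 1 and 5 in WT 2. Bst2 stood at 246 against 54.1 CPM in WT 1 and 143 against 29.9 CPM in WT 2, the last value from 5 UMIs; levels here are scaled within the WT fit and so differ slightly from those above. The only fall was Ccl5 (0.0105% of genes), with 0 UMIs in the signature cells of both libraries. With WT cells limited to tag 302, where WT 2 had 1 signature cell, edgeR called no gene higher (56 at an unadjusted p under 0.05), and with all tags DESeq2's Wald test called 2.

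Between genotypes, signature cells could be set side by side only as WT 1 against mutant 1, 1 library each, with no test. Their levels were close for some genes: Bst2 (218 and 179 CPM), Ly6a (200 and 193 CPM), Slfn5 (132 and 166 CPM) and Oas1a (37.0 and 38.6 CPM). They were further apart for Ifi44 (36.1 and 132 CPM) and Ifi27l2a (4235 and 6988 CPM). In the other T cells Ifi44 stood at 2.45 and 1.96 CPM and Ifi27l2a at 968 and 943 CPM. Iigp1, an immunity-related GTPase, stood at 13.5 CPM in WT 1 and 168 in mutant 1, and Cybb, the catalytic chain of the phagocyte oxidase, at 9.92 and 155 CPM. Both genes also differed between the other T cells of the 2 libraries, at 9.15 and 47.8 CPM for Iigp1 and 9.15 and 36.7 CPM for Cybb. Library and genotype cannot be told apart in these values.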

How the data were processed

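The authors deposited UMI counts for 32285 genes per barcode. The submitters' processing notes name Cell Ranger 6.0.0, Seurat 4 and mm10. Antibody tags were taken from the same WT matrices. Signature cells, lists and alternatives were chosen with earlier results of these data known. UMIs were summed per library and class (1085562 and 373777 UMIs for signature cells of WT 1 and mutant 1) and tested in R 4.3.3 with edgeR 4.0.16 (TMM, filterByExpr, library block) at an adjusted p under 0.05, without the 8 rule genes; DESeq2 1.42.0 was an alternative. Scripts were tested on simulated data, where the fit of WT 1 and mutant 1 made 0 false calls and the WT fit made 7. The simulated sums gave every gene the same spread, taken from the fit itself, and did not gather UMIs in single cells. They therefore cannot show how often genes with a wider spread, or carried by few cells, are called falsely. Genes were named by rule: the 15 largest rises and falls past the threshold, moved alike in both libraries and with at least 20 UMIs found, or for falls expected, in signature cells, and list members. Doublets were called with Scrublet in scanpy 1.11.5 and left in. The fits of genotype within signature cells, and of its interaction, were not run, since WT 2 and mutant 2 had under 10 signature cells. Some results are not reported here. Zero counts were bounded with 3 counts per library and class.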

Additional observations from a re-analysis of the deposited data

Results flagged for a closer look

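The signature cells of WT 1 and mutant 1 lay on opposite sides of their own comparators for 4 of the genes called higher, and the difference between libraries was not tested. Cenpf, a kinetochore protein, had a fitted log2 fold change of 2.27, with 1.80 against 4.91 CPM in WT 1 and 149 against 13.7 CPM in mutant 1. Mki67, the proliferation marker, had 1.24, with 0.902 against 10.2 and 157 against 31.4 CPM. Cenpa, the centromeric histone, had 0.85, with 26.2 against 30.9 and 124 against 32.3 CPM. In mutant 1, a single barcode held 68.5% of the Cenpf UMIs of signature cells, 71.9% of those of Mki67 and 71.1% of those of Cenpa. Id1, an inhibitor of helix-loop-helix factors, had 0.98 and ran the other way, with 41.5 against 7.17 CPM in WT 1 and 11.04 against 46.6 CPM in mutant 1. In WT 1, 1 barcode held 47.8% of its 46 UMIs in signature cells.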

How the results depend on the processing

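The 105 higher and 14 lower genes became 55 and 0 with DESeq2, 28 and 0 with no replicate block, and 168 and 50 against comparators with no rule gene. With all 4 libraries, an alternative chosen after seeing the data, they became 57 and 4, and 10 and 0 without WT 1, 65 and 5 without WT 2, 14 and 2 without mutant 1, and 73 and 3 without mutant 2. With at least 5 rule genes 9 were lower. For WT alone, 25 higher and 1 lower became 2 and 0 with DESeq2, 46 higher with no filter, 76 and 8 with no replicate block, 4 lower against comparators with no rule gene, and 0 higher with tag 302 only, also added later. The causes were not tested. With the replicate number as a block, added later, the share difference was also -2.34 points (-4.89 for libraries 1 and 0.201 for libraries 2; exact sign-flip permutation p = 1, the smallest possible being 0.5). No source says that equal numbers mark a shared batch. Without WT 1, the share difference reversed to 1.94 points, and the range as each library was left out was -6.63 to 1.94. Leaving 1 library out of the 2-library test left no residual degree of freedom. Mki67 reversed with DESeq2 (-0.34), without mutant 1 (-2.56, against 2.29 without WT 1) and with 4 libraries less mutant 1 (-1.64). Ms4a4b reversed with all 4 libraries (-0.28), and less WT 1 (-0.86) or mutant 1 (-1.09). Less WT 1, Ccr9 (-0.26) and Gbp2 (-0.029) reversed, and less mutant 1, Ly6e (-0.014) and Sp100 (-0.011). Bst2, Gbp6, Lgals3bp and Rnf213 passed in all 15 alternatives that gave a p.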
